A study of Mus musculus with 6 samples.

Results

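The nuclear-encoded subunits of the respiratory chain and ATP synthase were followed in the liver of mice given sulfasalazine. Members were taken by gene name, among loci of the table that carry an Ensembl transcript: Nduf genes of complex I, Sdha to Sdhd of complex II, Cyc1 and the Uqcr genes of complex III, Cox5a to Cox8a genes of complex IV, and Atp5 genes of complex V. This gave 79 genes of 42612 loci, with 37 in complex I, 4 in complex II, 9 in complex III, 13 in complex IV and 16 in complex V. Pseudogene names were left out. The name rule also takes Atp5s and Atp5sl, which are not structural subunits, and Ndufa4, now regarded as a complex IV protein, and it misses Cox4i1 and Ndufab1, which are given further on.

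Liver RNA of 6 male ICR mice aged 8 weeks, an outbred stock, was sequenced after ribosomal RNA depletion. The 3 treated mice received 1000 mg/kg sulfasalazine by gavage for 4 weeks, and the 3 control mice received the 0.1% DMSO vehicle on the same schedule; each came from a group of 10, and the groups at 250 and 500 mg/kg were not analysed here. The drug is an anti-inflammatory agent that gut bacteria cleave, and per the series' title the study asked how it injures the mouse liver. The labels name each library as a separate sample; they do not say more about how the mice were chosen, and p-values measure the spread between these 6 libraries. Values are FPKM, fragments scaled to transcript length and library, so depth is unknown. Summed FPKM lay between 224434 and 260047 per library. The 8 hepatocyte markers had a summed level of 19529 to 24290 FPKM in control and 19990 to 22082 in treated livers, most of it Alb, albumin. By single gene, 6 of the 8 were negative, with a median log2 fold change of -0.22 and 0 called (limma); Serpina1a was lower and Hnf4a higher without overlap. Fewer cells of a type and less RNA per cell cannot be told apart in bulk tissue. Control mouse 3 stood apart in immune markers: the 10 of Kupffer cells and macrophages summed to 323 FPKM there and to 84.2 to 157 elsewhere, and the 7 of neutrophils to 22.3 FPKM there and to 0.584 to 1.94 elsewhere. Treated mouse 2 stood apart in the 5 erythroid markers, at 849 FPKM against 254 to 430 elsewhere. The 9 stellate cell and fibroblast markers summed to 80.0 to 106 FPKM in control and 62.3 to 79.4 in treated livers, narrowly without overlap. Dcn alone was at 40.6 to 47.4 FPKM in control and 33.8 to 36.7 in treated livers. Of the 8 tested, 7 were negative and 1, Rgs5, was positive, with 0 called. Only Dcn and Reln were lower without overlap (25%, beside 6.46% of all tested loci). The part of these cells in the subunit values was not tested.

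Oxidative phosphorylation passes electrons from NADH through complex I, or from succinate through complex II, to ubiquinone, then through complex III and cytochrome c to complex IV, which reduces oxygen. Complexes I, III and IV pump protons across the inner mitochondrial membrane, and complex V, the ATP synthase, lets them return to make ATP. All but complex II also contain subunits encoded in mitochondrial DNA. Of the 13 names searched for these, 0 were found among loci with an Ensembl transcript, so their transcripts were not analysed here. Hepatocytes are rich in mitochondria and use this ATP for glucose, urea and lipid synthesis. Transcription of the nuclear subunits is known to depend on factors such as NRF1, GABPA and YY1, with coactivators of the PGC-1 family.

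The summed subunit transcripts were close to level between the groups. Summed over the 79 genes, they came to 2404, 2476 and 2319 FPKM in the control mice and to 2274, 2428 and 2311 FPKM in the treated mice. The group means were 2399 ± 78.3 and 2338 ± 80.3 FPKM (SD, n = 3 each), and the groups overlapped. These genes held 0.907% to 1.03% of all FPKM in a library.

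By complex, 4 of the 5 sums overlapped between groups. The complex I sum was 697, 747 and 637 FPKM with vehicle against 697, 693 and 728 with sulfasalazine. For complex II it was 188, 189 and 179 FPKM with vehicle against 168, 193 and 193 with sulfasalazine. The complex IV sum was 600, 587 and 542 FPKM with vehicle against 563, 645 and 509 with sulfasalazine. Complex V summed to 562, 609 and 572 FPKM in control and to 543, 569 and 549 in treated livers. On the log2 scale, the ratio of treated to control mean sums was 0.02 for complex I, -0.00491 for complex II, -0.01 for complex IV and -0.07 for complex V. Single libraries moved these ratios across 0: leaving out 1 library gave -0.03 to 0.08 for complex I, -0.04 to 0.06 for complex II and -0.11 to 0.07 for complex IV, while complex V stayed between -0.09 and -0.03. The lowest of these values came without control mouse 3 for complex I and without treated mouse 2 for complexes II and IV. Without the members that spanned 2-fold or more within a group, the ratio was -0.10 for complex IV, where Cox8a reached 167 FPKM in treated mouse 2, and -0.03 for complex V.

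The complex III sum did not overlap between groups. It was 357, 343 and 389 FPKM with vehicle against 304, 327 and 332 with sulfasalazine, with means of 363 ± 23.6 and 321 ± 14.8 (SD, n = 3 each) and a log2 ratio of -0.18. The margin was narrow, from 332 to 343 FPKM, and the separation could not be assigned to single genes. Of the 9 genes, 7 had negative and 2 positive log2 fold changes. Cyc1, with a mean of 58.0 FPKM with vehicle against 43.8 with sulfasalazine, was among the negative ones. Uqcr10 and Uqcrfs1 differed widely within each group. Without these 2, the sum over the other 7 genes was 296, 282 and 293 FPKM with vehicle against 286, 241 and 282 with sulfasalazine. The groups then overlapped and the log2 ratio was -0.11. Such a sum over members is given without a test.

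**Figure D1:**
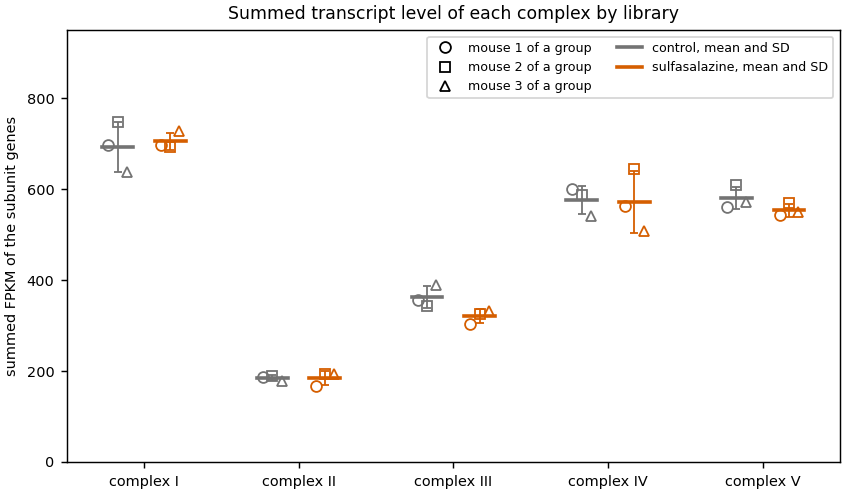
Summed FPKM of the subunit genes of each complex (vertical axis, linear from 0) in the 3 control (grey) and 3 sulfasalazine (orange) libraries, with the mean and SD of each group. The groups overlap in complexes I, II, IV and V; in complex III the controls lie between 343 and 389 and the treated between 304 and 332.

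Between complexes the order of levels depended on the measure. Complex I, with the most genes, had the highest sum in 6 of 6 libraries, and complexes III and II had the lowest. Complexes IV and V changed places from library to library. By the mean FPKM per gene, complex II was first in the 3 control libraries and in treated mouse 3, complex IV was first in treated mice 1 and 2, and complex I was last in 6 of 6 libraries. The median FPKM per gene put complex II first, complex III next and complex IV after it in 6 of 6 libraries, ahead of complexes I and V. That median was 49.1 ± 1.73 FPKM for complex II, 42.1 ± 2.73 for complex III and 32.7 ± 1.12 for complex IV in the control livers (SD, n = 3), against 15.4 ± 2.73 for complex V and 13.7 ± 1.35 for complex I. By these control means and SDs, complexes V and I did not differ beyond their spread. Within single libraries complex V lay above complex I in all but control mouse 1, where it was at 13.8 against 13.97 FPKM. In treated livers the medians were 51.9 ± 4.59, 37.8 ± 3.76, 34.2 ± 2.37, 15.4 ± 1.37 and 12.5 ± 1.06 FPKM in the same order, and complexes III and IV then lay within about 1 SD of each other.

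Levels of single genes within a complex differed far more, although the subunits are assembled in fixed proportions. Over complex I the mean FPKM ran from 2.57 for Ndufb7 to 89.8 for Ndufa6. This leaves out Ndufa4l2, an alternative form of Ndufa4, at 0.618. These levels went with the number of transcripts assembled at the locus: the median was 39.3 FPKM for the 17 members with 1 transcript, 19.9 for the 29 with 2 to 4 and 15.2 for the 33 with 5 or more. Over all tested loci with an Ensembl transcript the corresponding medians were 2.84, 3.78 and 3.67 FPKM, without that order. Whether the authors' assembly lowers the FPKM of loci with many transcripts was not tested.

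Single genes were compared as log2(FPKM + 1) with limma over the 11969 loci that reached 1 FPKM in at least 3 libraries, with Benjamini-Hochberg adjustment over all of them. Of the 79 members 75 were tested; Cox6a2, Cox6b2, Cox7a1 and Ndufa4l2 were too low. At an adjusted p under 0.05, 0 members were called higher and 0 lower, against a background of 0.0167% of tested loci called higher and 0.0% lower. At an unadjusted p under 0.05 there were 2 of 75 members, 1 in each direction, where the background was 7.51% of tested loci, 3.64% higher and 3.87% lower. Groups did not overlap for 4 members that were higher and 6 that were lower in treated livers, beside 6.71% and 6.46% of tested loci.

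Median fold changes were near 0 in each complex. Over the 75 members the median log2 fold change was -0.06, with 29 positive and 46 negative values, beside a median of -0.00206 and 49.6% positive values over all tested loci. Complex I had 15 positive and 21 negative values and a median of -0.05. Its 7 core subunits, which carry the flavin and iron-sulfur clusters, had a median of -0.07 and its 29 tested accessory subunits one of -0.01. The 4 genes of complex II had a median of 0.06, the 9 of complex III one of -0.06, the 10 tested of complex IV one of -0.13 and the 16 of complex V one of -0.02. In complex IV 8 of 10 and in complex III 7 of 9 values were negative, and 0 of these passed the test.

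The 95% intervals show how large a change the data leave room for. The interval lay within -1 and 1 on the log2 scale for 63 of 75 members, against 72.3% of all tested loci, and within -0.5 and 0.5 for 36 of 75, against 33.8%. A p that misses the threshold does not show that these genes were equal between groups. The widest interval, from -4.58 to 3.92, belonged to Uqcr10.

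**Figure D2:**
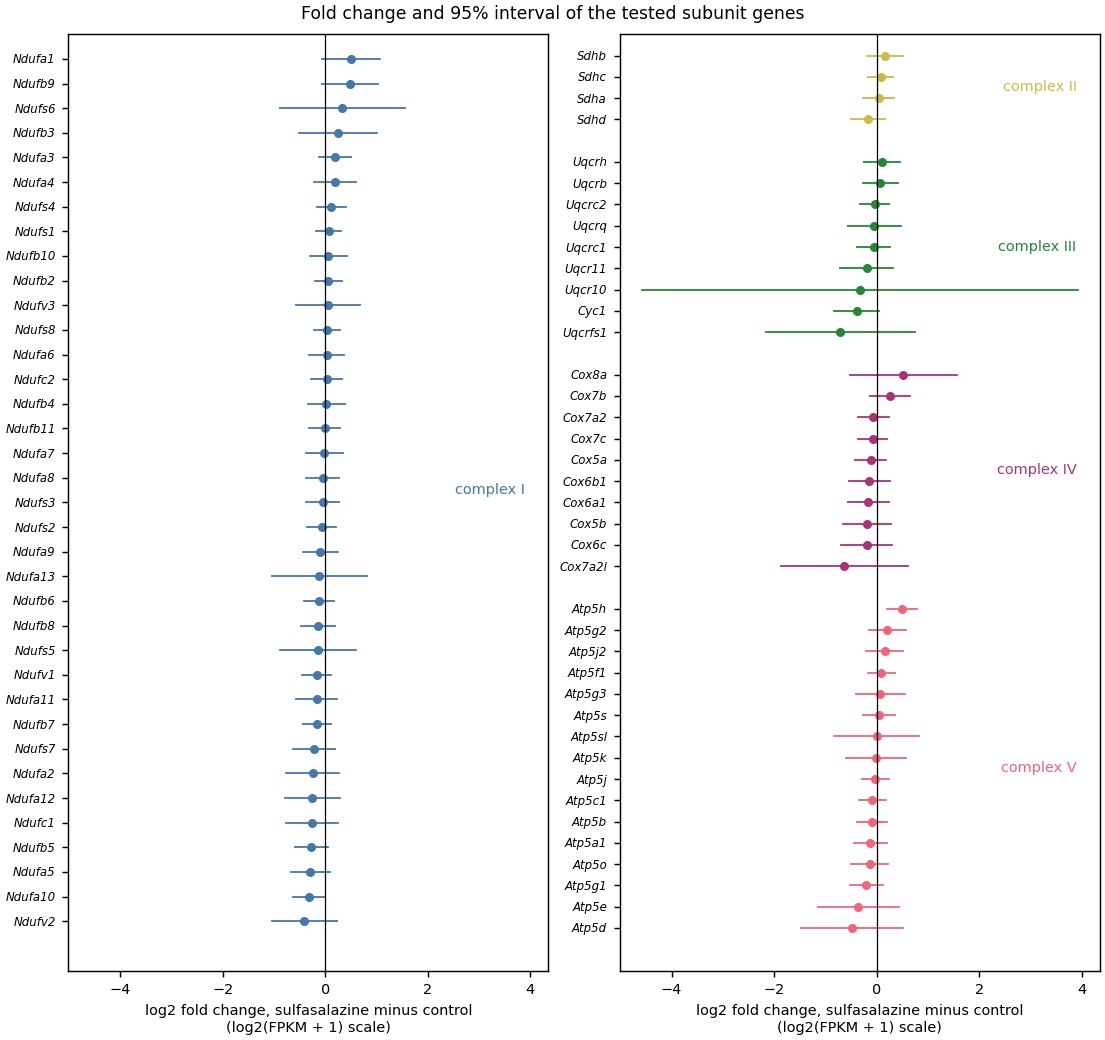
Log2 fold change (points) and 95% limma interval (lines) of the 75 tested subunit genes on the log2(FPKM + 1) scale, with complex I on the left and complexes II to V on the right. Most intervals cover 0, the intervals of Atp5h (0.21 to 0.79) and Ndufa10 (-0.63 to -0.01) lie on 1 side of it, and that of Uqcr10 is by far the widest.

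Among ATP synthase genes, Atp5h had the smallest p of all members. Atp5h encodes subunit d of the peripheral stalk, which holds the catalytic head against rotation. It was at 32.9, 28.4 and 29.99 FPKM with vehicle against 42.6, 43.1 and 44.4 with sulfasalazine. The groups did not overlap, and the treated mice lay close together. Its log2 difference was 0.50 (SE 0.12), with an interval of 0.21 to 0.79, higher in 3 of 3 treated mice, and it did not pass over all loci (limma, adjusted p = 0.401). The annotation places Atp5h on chromosome 11 from 115415689 to 115419962 in GRCm38, on the minus strand, as a protein-coding gene.

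The other 3 peripheral stalk genes had log2 fold changes of -0.13 (Atp5o), -0.02 (Atp5j) and 0.09 (Atp5f1). Atp5f1, subunit b, was at 23.9, 25.9 and 25.0 FPKM with vehicle against 26.3, 27.4 and 26.0 with sulfasalazine, higher in 3 of 3 treated mice by 0.09 on the log2 scale (SE 0.11; limma, adjusted p = 0.883). The genes of the catalytic head and central stalk had 5 of 5 negative values and a median of -0.12, with 0 called. Atp5b, the catalytic beta subunit, was at 145, 149 and 142 FPKM with vehicle against 133, 135 and 141 with sulfasalazine, a log2 difference of -0.09 (SE 0.12; limma, adjusted p = 0.885). Atp5a1, the alpha subunit and the most abundant member, had 163 ± 5.98 against 150 ± 11.1 FPKM (SD, n = 3 each; limma, adjusted p = 0.877). Atp5c1, the gamma subunit of the central stalk, was at 43.3, 41.4 and 41.8 FPKM with vehicle against 39.9, 39.2 and 40.2 with sulfasalazine (limma, adjusted p = 0.889). The groups did not overlap for Atp5b and Atp5c1 and overlapped for Atp5a1.

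The c-ring, which turns as protons pass, is encoded by 3 genes with the same mature protein. Atp5g3 gave 47.8% to 56.0% of their summed FPKM in the 6 libraries. Atp5g1 gave 29.2%, 24.7% and 20.2% in the control mice and 21.7%, 19.4% and 20.4% in the treated mice. Atp5g2 gave 23.0%, 22.8% and 23.8% in the control mice and 27.5%, 26.9% and 24.6% in the treated mice, without overlap. As single genes, Atp5g1 had a log2 difference of -0.20 (SE 0.13) and Atp5g2 one of 0.21 (SE 0.15; limma, adjusted p = 0.800 and 0.817).

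In complex I the smallest p belonged to Ndufa10, an accessory subunit of the membrane-side arm. It was at 18.4, 20.8 and 19.4 FPKM with vehicle against 17.1, 13.8 and 15.6 with sulfasalazine. The groups did not overlap, at a log2 difference of -0.32 (SE 0.13), lower in 3 of 3 treated mice (limma, adjusted p = 0.648). Ndufb5, another accessory subunit, was at 7.85, 8.55 and 6.23 FPKM with vehicle against 5.86, 6.19 and 6.002 with sulfasalazine, its highest treated value just under the lowest control value (limma, adjusted p = 0.727). Ndufv1, the core subunit that binds the flavin and accepts electrons from NADH, was at 37.8, 35.9 and 35.7 FPKM with vehicle against 31.8, 31.0 and 34.7 with sulfasalazine (limma, adjusted p = 0.817). These were the 3 of 36 tested complex I genes that were lower without overlap (8.33%, beside 6.46% of all tested loci). Without overlap, 0 were higher, beside 6.71% of all tested loci.

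Other complex I genes with small p overlapped between groups. Ndufa1 was at 23.0, 14.2 and 13.0 FPKM with vehicle against 25.4, 20.7 and 24.1 with sulfasalazine, with control mouse 1 among the treated values (limma, adjusted p = 0.711). Ndufb9 was at 41.9, 41.5 and 38.4 FPKM with vehicle against 41.0, 64.3 and 70.1 with sulfasalazine, so that treated mouse 1 stood with the controls (limma, adjusted p = 0.711). Ndufv2, a core iron-sulfur subunit, was at 19.3, 20.2 and 19.7 FPKM with vehicle against 12.4, 22.4 and 11.1 with sulfasalazine, low in treated mice 1 and 3 alone (limma, adjusted p = 0.794). Ndufa5 had 5.32 ± 1.07 against 4.13 ± 0.498 FPKM and Ndufa3 14.5 ± 1.15 against 16.7 ± 1.52 (SD, n = 3 each; limma, adjusted p = 0.743 and 0.800). Ndufa6, the most abundant complex I gene, had 89.0 ± 9.28 against 90.5 ± 6.502 FPKM (SD, n = 3 each), with an interval of -0.32 to 0.37 for the log2 fold change.

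Complex II, which is also the succinate dehydrogenase of the citrate cycle, had its membrane anchors on opposite sides. Sdhd was at 76.9, 74.6 and 71.6 FPKM with vehicle against 58.6, 71.2 and 69.6 with sulfasalazine, and Sdhc at 12.4, 13.2 and 13.0 FPKM with vehicle against 13.5, 14.2 and 13.3 with sulfasalazine. Neither gene overlapped between groups. Their log2 fold changes were -0.16 (SE 0.13) and 0.08 (SE 0.10; limma, adjusted p = 0.845 and 0.887). Sdha, the flavoprotein subunit that oxidises succinate, had 62.0 ± 4.36 against 64.0 ± 2.88 FPKM (SD, n = 3 each; limma, adjusted p = 0.953).

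In complexes III and IV no member was without overlap. Cyc1, cytochrome c1, which hands electrons to cytochrome c, was at 67.8, 48.2 and 57.9 FPKM with vehicle against 50.4, 40.5 and 40.6 with sulfasalazine. Its log2 difference was -0.39 (SE 0.18), and treated mouse 1 lay above control mouse 2 (limma, adjusted p = 0.711). Uqcr11, a small subunit, had 57.6 ± 5.39 against 51.3 ± 13.5 FPKM, and Cox7b, a small complex IV subunit, had 27.6 ± 4.22 against 33.2 ± 3.44 FPKM (SD, n = 3 each; limma, adjusted p = 0.879 and 0.780). Cox6a1, the most abundant complex IV gene, was at 165, 160 and 133 FPKM with vehicle against 154, 138 and 118 with sulfasalazine (limma, adjusted p = 0.873).

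A smaller group of subunits varied widely between mice of the same group. Within at least 1 group, 13 of 75 members spanned 2-fold or more, beside 37.7% of all tested loci and 25.1% of those with a mean of at least 5 FPKM. Of these 13 genes, 12 lay at loci of 4 or fewer transcripts, as did 43 of the 75 tested members. Over all tested loci with an Ensembl transcript, the share spanning 2-fold was 43.1% at 1 transcript, 34.1% at 2 to 4 and 18.5% at 5 or more. Of the 6 described next, all but Cox8a were chosen after their values were seen.

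Uqcr10, a small complex III subunit, was at 0.729, 39.1 and 34.9 FPKM with vehicle against 0.246, 28.7 and 32.9 with sulfasalazine. Mouse 1 of each group was nearly without signal at this locus, and the other 4 mice lay together. A second Uqcr10 row, left out for want of an Ensembl transcript, was at 1.44 FPKM in treated mouse 1 and listed at 0 in the others. Uqcrfs1, the Rieske iron-sulfur protein of complex III, was at 60.3, 21.9 and 61.2 FPKM with vehicle against 18.1, 57.4 and 17.1 with sulfasalazine. Ndufs6, a complex I subunit, was at 25.5, 55.6 and 20.7 FPKM with vehicle against 54.1, 21.0 and 52.7 with sulfasalazine. Control mouse 2 and treated mice 1 and 3 were thus the low ones for Uqcrfs1 and the high ones for Ndufs6. Both genes lie on chromosome 13 in GRCm38, Uqcrfs1 from 30540308 to 30545362 and Ndufs6 from 73319838 to 73328542. The groups overlapped for both, and adjusted p was 0.857 and 0.907 (limma).

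For 3 further genes a single treated mouse stood apart. Cox8a, a small complex IV subunit, was at 167 FPKM in treated mouse 2, the mouse with the highest erythroid markers, and at 54.7 to 58.0 in the other 5 mice. Cox7a2l, which joins complexes III and IV into supercomplexes, was at 8.32 FPKM in treated mouse 3 and at 31.5 to 34.0 in the others. Atp5d, the delta subunit of the ATP synthase central stalk, was at 24.9 FPKM in treated mouse 3 and at 58.6 to 77.3 in the others. The values of Cox8a, Cox7a2l and Atp5d overlapped between groups over all 6 libraries, and also without the library that stood apart. The cause of these differences was not tested.

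**Figure D3:**
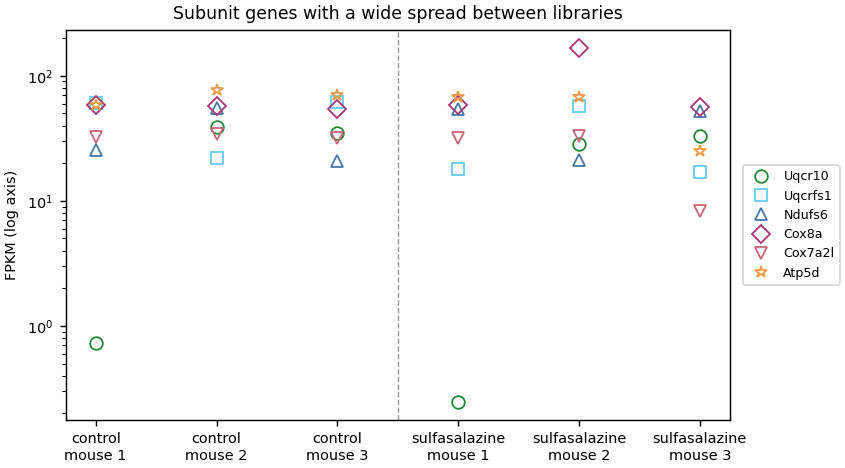
FPKM (log axis) of 6 subunit genes in each control and sulfasalazine library, chosen for their wide spread within a group. Uqcrfs1 is low and Ndufs6 high in control mouse 2 and sulfasalazine mice 1 and 3, Uqcr10 is near 0 in mouse 1 of each group, and Cox8a, Cox7a2l and Atp5d stand apart in 1 sulfasalazine library each.

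The promoter of Atp5h is printed because its gene had the smallest p, that of Ndufa10 because it came next and in the other direction, and those of Uqcrfs1 and Ndufs6 because their levels were high in opposite mice. Each runs from 250 bases before to 50 bases after the RefSeq start in build GRCm38.p6, on the minus strand, 5′ to 3′. The Atp5h window is chr11:115419870-115420169, that of Ndufa10 chr1:92473709-92474008, that of Ndufs6 chr13:73328433-73328732 and that of Uqcrfs1 chr13:30545267-30545566. Capitals mark matches to GCGCANGCG, the core read by NRF1, to CCGGAAGT, the core read by GABPA, and to AAGATGGCG, the core read by YY1, each searched on both strands, so that a match on the other strand reads as the reverse complement. In Atp5h the capitals are an NRF1 match at bases 110 to 118 and a GABPA match at 212 to 219 of the window. In Ndufs6 they are an NRF1 match at bases 236 to 244 and a YY1 match at 284 to 292. The windows of Ndufa10 and Uqcrfs1 hold none of the 3 strings.
Atp5h: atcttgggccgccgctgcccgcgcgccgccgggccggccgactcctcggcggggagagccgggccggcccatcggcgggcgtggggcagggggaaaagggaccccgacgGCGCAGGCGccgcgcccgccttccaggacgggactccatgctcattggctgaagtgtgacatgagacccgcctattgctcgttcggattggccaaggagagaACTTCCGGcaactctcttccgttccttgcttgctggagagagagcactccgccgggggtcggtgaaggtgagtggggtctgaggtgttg
Ndufa10: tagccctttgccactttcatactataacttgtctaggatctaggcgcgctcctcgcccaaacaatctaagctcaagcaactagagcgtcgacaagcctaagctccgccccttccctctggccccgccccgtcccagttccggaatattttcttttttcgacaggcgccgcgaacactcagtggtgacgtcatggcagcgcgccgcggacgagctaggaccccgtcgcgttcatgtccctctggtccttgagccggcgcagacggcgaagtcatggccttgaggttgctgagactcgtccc
Ndufs6: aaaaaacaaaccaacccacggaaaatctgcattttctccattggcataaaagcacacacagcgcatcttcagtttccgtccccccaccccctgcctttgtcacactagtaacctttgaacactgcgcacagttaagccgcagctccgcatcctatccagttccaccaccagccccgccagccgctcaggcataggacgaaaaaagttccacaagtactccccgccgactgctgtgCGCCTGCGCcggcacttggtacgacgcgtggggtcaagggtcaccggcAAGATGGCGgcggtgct
Uqcrfs1: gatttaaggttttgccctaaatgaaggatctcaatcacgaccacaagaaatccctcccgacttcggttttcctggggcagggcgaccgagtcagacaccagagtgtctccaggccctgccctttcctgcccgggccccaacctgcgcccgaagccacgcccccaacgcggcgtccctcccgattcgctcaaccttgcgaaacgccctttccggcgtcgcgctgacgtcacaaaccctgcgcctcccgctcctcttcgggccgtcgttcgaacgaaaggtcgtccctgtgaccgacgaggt

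RefSeq windows were found for 66 of the 79 members. An NRF1 string stood in 19 of these 66 (28.8%), beside 7.03% of the 27025 genes with a window. A GABPA string stood in 5 members (7.58%, beside 4.31% of all genes) and a YY1 string in 8 (12.1%, beside 1.64%). Of the 66 members 29 held at least 1 string (43.9%, beside 11.9% of all genes), 13 of 32 in complex I, 2 of 3 in complex II, 3 of 5 in complex III, 2 of 11 (18.2%) in complex IV and 9 of 15 in complex V. In 0 of the 72 member windows did matches to different strings overlap. The 19 members with an NRF1 string had a median level of 36.9 FPKM and the 45 tested members without one 15.8. Their median log2 fold changes were -0.05 and -0.08. For a match to any of the 3 strings the order of levels was reversed. The 29 members with at least 1 string had a median of 15.2 FPKM and the 35 tested members with none 17.5. The median log2 fold changes of these 29 and 35 members were -0.02 and -0.11. A match is a description of the letters and not a binding site.

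Several subunits have a form used mainly in heart and skeletal muscle, testis or hypoxic cells, and the liver libraries held almost none of these. Cox6a2, the muscle form, was at 0.0734 FPKM in control mouse 2 and listed at 0 in the other 5 mice, while Cox6a1 was at 118 FPKM or more. Cox7a1, the other muscle form, was at 0.740, 0.630 and 2.08 FPKM with vehicle against 0.245, 0.569 and 0.668 with sulfasalazine, while Cox7a2 was at 58.7 FPKM or more. The highest Cox7a1 value belonged to control mouse 3, which also had the highest macrophage, neutrophil and fibroblast marker sums, and the part of those cells was not tested. The 6 muscle markers in the table summed to 0.0921 to 0.228 FPKM, and the 4 adipocyte markers to 0.262 to 1.44. Cox6b2, the testis form, reached 0.467 FPKM against 53.8 or more for Cox6b1.

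The hypoxia-linked forms were low too. Ndufa4l2, which replaces Ndufa4 in low oxygen, was at 0.277, 0.0947 and 1.15 FPKM with vehicle against 1.43, 0.228 and 0.533 with sulfasalazine, while Ndufa4 was at 38.3 FPKM or more. Cox4i2, the form of subunit 4 linked to low oxygen and found mainly in lung, stayed at or under 0.0664 FPKM. Cox4i1, the common form, had 62.9 ± 5.63 against 62.0 ± 1.23 (SD, n = 3 each; limma, adjusted p = 0.984). The groups overlapped for all 4 low forms of the isoform plot, and 0 of them reached the level for testing.

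**Figure D4:**
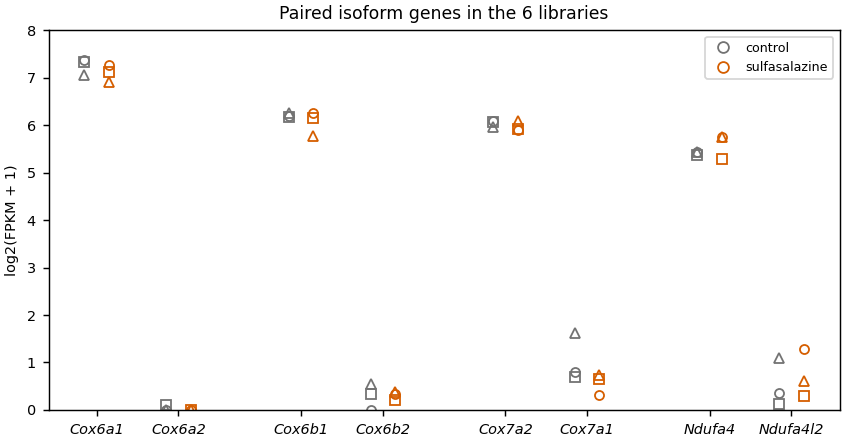
Level as log2(FPKM + 1) of 4 pairs of alternative subunit genes in the 3 control (grey) and 3 sulfasalazine (orange) libraries; circles, squares and triangles are mice 1, 2 and 3 of a group. Cox6a2, Cox6b2, Cox7a1 and Ndufa4l2 reach at most 2.08 FPKM in any library, and their partners stay at 38.3 FPKM or more.

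Other genes of the same system gave 0 calls in each list by limma. Counts at an unadjusted limma p under 0.05 were 1 of 36 assembly factors (2.78%) and 2 of 7 electron-transfer carriers or enzymes (28.6%). There were also 1 of 14 citrate cycle genes (7.14%) and 3 of 67 mitochondrial ribosomal protein genes (4.48%), and 0 in the other lists. The share over all tested loci was 7.51%. Of 36 tested assembly factors 0 passed, with 18 positive and 18 negative values and a median of -0.000405. Lrpprc, which stabilises mitochondrial transcripts and is the most abundant of them, had 13.7 ± 0.707 against 13.1 ± 0.734 FPKM (SD, n = 3 each; limma, adjusted p = 0.912). Sdhaf4, a complex II assembly factor, was at 2.19, 2.24 and 1.53 FPKM with vehicle against 2.57, 3.69 and 3.65 with sulfasalazine, without overlap (limma, adjusted p = 0.544). Of 10 tested ubiquinone synthesis genes 0 passed, with a median of -0.03. Coq8a, the most abundant, had 64.2 ± 14.98 against 63.5 ± 8.43 FPKM, and Coq10b, a ubiquinone-binding protein, had 3.10 ± 1.28 against 1.67 ± 0.338 (SD, n = 3 each; limma, adjusted p = 0.999 and 0.685).

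Enzymes that feed electrons to ubiquinone by other routes held the smallest p of the added lists. Gpd2, the mitochondrial glycerol-3-phosphate dehydrogenase of the glycerol phosphate shuttle, was at 3.11, 3.54 and 3.41 FPKM with vehicle against 6.73, 6.48 and 5.49 with sulfasalazine. The groups were well apart, at a log2 difference of 0.73 (SE 0.11), higher in 3 of 3 treated mice, but Gpd2 did not pass over all loci (limma, adjusted p = 0.181). In the same list, 6 of 7 tested genes had positive values and the median was 0.15, with 0 called. Chdh, the choline dehydrogenase, named after its values were seen, was at 11.6, 9.73 and 13.0 FPKM with vehicle against 16.2, 15.6 and 14.0 with sulfasalazine (limma, adjusted p = 0.622). Etfa, the alpha subunit of the electron transfer flavoprotein, had 47.1 ± 5.10 against 48.4 ± 3.49 FPKM (SD, n = 3 each; limma, adjusted p = 0.961).

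The citrate cycle gave 0 calls over 14 tested genes, 7 positive and 7 negative, with a median of 0.03. Dld, the lipoamide dehydrogenase shared by several mitochondrial dehydrogenase complexes, was at 18.5, 21.1 and 20.6 FPKM with vehicle against 15.8, 15.4 and 16.3 with sulfasalazine, without overlap (limma, adjusted p = 0.605). Dlst, another part of the oxoglutarate dehydrogenase complex, had 28.5 ± 11.4 against 31.9 ± 9.75 FPKM (SD, n = 3 each; limma, adjusted p = 0.932). Of the carriers, Slc25a3, which brings phosphate in for ATP synthesis, had 31.1 ± 1.13 against 27.3 ± 0.955 FPKM, and Slc25a5, an ADP/ATP exchanger, had 79.1 ± 17.1 against 87.8 ± 16.6 (SD, n = 3 each; limma, adjusted p = 0.780 and 0.905). Of 3 tested carriers and uncoupling proteins 2 were positive, and the median was 0.14.

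Among regulators of mitochondrial gene expression, of 17 tested genes 0 passed and the median was -0.00388. Nrf1 was at 1.33, 1.20 and 1.30 FPKM with vehicle against 1.05, 1.16 and 1.20 with sulfasalazine. Gabpa was at 4.99, 5.20 and 5.12 FPKM with vehicle against 6.03, 5.79 and 5.36 with sulfasalazine, without overlap, at a log2 difference of 0.14 (SE 0.09; limma, adjusted p = 0.812). Ppargc1a, which encodes the coactivator PGC-1alpha, had 1.91 ± 0.581 against 1.47 ± 0.558 FPKM, Esrra 5.93 ± 2.53 against 5.14 ± 0.737, and Tfam, which packages mitochondrial DNA, 4.54 ± 0.437 against 5.17 ± 0.323 (SD, n = 3 each). Ppara, the fatty acid receptor, had 9.05 ± 0.981 against 11.7 ± 1.84 FPKM (SD, n = 3 each; limma, adjusted p = 0.719).

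Ribosomal protein genes were listed beside the subunits, which had a median level of 17.5 FPKM over all 79 members, tested or not. The median was 3.79 FPKM for the mitochondrial ribosomal proteins and 30.8 for the cytosolic ones. Of 67 tested mitochondrial ribosomal protein genes 0 passed, with 29 positive values and a median of -0.04. Mrps12 was at 6.005, 4.85 and 2.79 FPKM with vehicle against 10.5, 6.35 and 10.03 with sulfasalazine (limma, adjusted p = 0.577), and Mrpl34 had 22.6 ± 1.85 against 19.6 ± 1.997 (SD, n = 3 each; limma, adjusted p = 0.800). Of 80 tested cytosolic ribosomal protein genes 0 passed, with 34 positive values and a median of -0.02. Rpl4 had 138 ± 4.27 against 136 ± 15.2 FPKM, while Rpl26 was at 23.1, 28.0 and 7.49 in control and 8.41, 7.13 and 6.89 in treated livers, high in control mice 1 and 2 (limma, adjusted p = 0.981 and 0.679). The subunits that the name rule misses gave 0 calls of 5 tested and a median of 0.06. Ndufab1, the acyl carrier protein of complex I, was at 3.09, 4.04 and 2.66 FPKM with vehicle against 4.31, 3.35 and 2.73 with sulfasalazine. Usmg5, a small ATP synthase subunit, had 84.1 ± 1.57 against 80.6 ± 6.18 FPKM, and Atpif1, the ATP synthase inhibitor, had 1.74 ± 0.867 against 2.12 ± 0.377 (SD, n = 3 each; limma, adjusted p = 0.932 and 0.876).

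**Figure D5:**
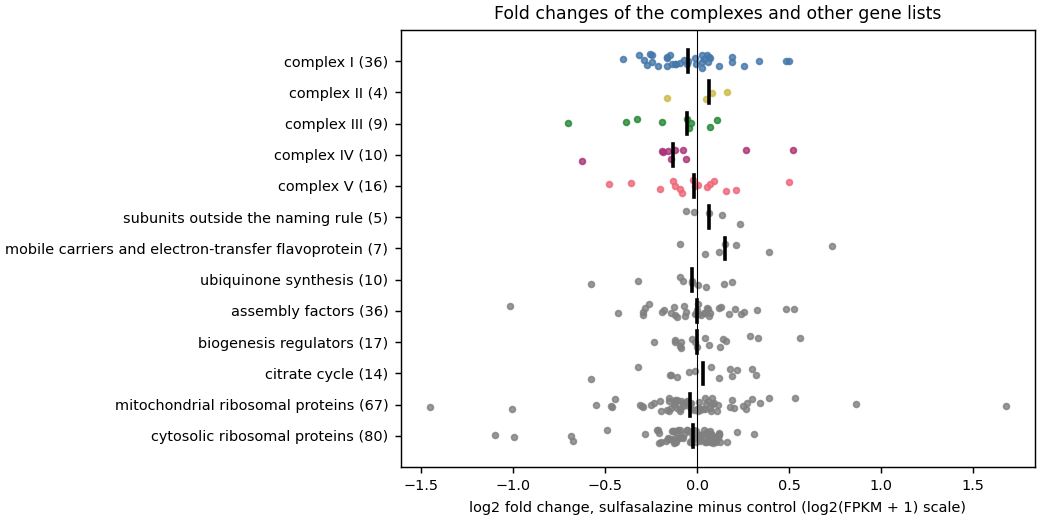
Log2 fold change on the log2(FPKM + 1) scale (horizontal axis) of each tested gene (points) by complex and by list, with the number of tested genes in brackets and the median as a black bar; points are spread vertically for legibility, and the list of 3 tested carriers and uncoupling proteins is not drawn. The medians lie between -0.13 for complex IV and 0.15 for the mobile carriers and electron-transfer flavoprotein.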

How the data were processed

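Liver RNA of 3 control and 3 sulfasalazine mice was measured. The table deposited by the authors gives FPKM for each locus. The build GRCm38.p5 and the tools StringTie, Bowtie2, cutadapt and FastQC are named in the submitters' processing notes, without versions. Low values showed no whole-read steps, so depth stayed unknown and no counting interval is given. Transcripts were looked up in GENCODE M21 (GRCm38), where all 79 members matched; the loci of Atp5o, Ndufb2 and Ndufb8 pool transcripts of more than 1 gene. Whether strand was used is not stated in the labels. A locus was tested where 3 or more libraries reached 1 FPKM, which left 11969. The test was limma 3.58.1 in R 4.3.3 on log2(FPKM + 1), a scale that understates changes of low genes, with a mean-variance trend, two-sided, Benjamini-Hochberg adjusted at 0.05 and tested on simulated data. Names ending in -ps, with or without a number, were left out (4 rows), as were 9 rows without an Ensembl transcript. Members and lists were chosen with earlier results of these data known. Genes were named by a rule: the 2 most abundant members of each complex, the 10 members with the smallest p, isoform pairs, the most abundant and the smallest-p gene of each list, and 5 regulators (Ppargc1a, Nrf1, Gabpa, Esrra and Tfam). Non-overlapping members outside it, Chdh, Ndufab1 and the wide-spread genes other than Cox8a and Ndufv2 were added after their values were seen. Alternatives changed pseudocount, filter, scaling, trend, loci, replicate block and libraries. Promoter windows are RefSeq's on GRCm38.p6.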

Additional observations from a re-analysis of the deposited data

How the results depend on the processing

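Under the 14 alternative fits 0 members were called, and the lowest adjusted p of a member was 0.333 (limma). For Atp5h the log2 fold change lay between 0.45 and 0.56 and the adjusted p between 0.334 and 0.723. All 652 values of 47 named genes stayed on their side of the threshold, and 21 changed sign. Over all loci, the 2 called higher became 1 with a pseudocount of 0.1, 0 with no filter, 6 with a 5 FPKM minimum, 23 without limma's trend and 9 over loci with an Ensembl transcript. The 0 called lower became 1 with the 5 FPKM minimum, 22 without the trend and 3 over Ensembl loci. Leaving out 1 mouse gave 1 to 8 higher (8 without control mouse 3) and 0 to 6 lower (6 without sulfasalazine mouse 2). A replicate block left 0 loci higher and 0 lower and changed no member's call. Mice of the same number showed no shared deviation, with correlations of 0.00967, -0.0668 and -0.0222, and the labels do not say that the number pairs mice. Quantile normalization moved the median log2 fold change to -0.12 for complex III and -0.20 for complex IV, and the 5 FPKM minimum moved that of complex V to -0.0886. Leaving out 1 mouse, the medians lay between -0.162 and -0.0261 for complex III and between -0.149 and -0.0770 for complex IV; the first and last of these values were without sulfasalazine mouse 3. The 5 FPKM minimum drops Atp5j, Atp5j2, Atp5k and Atp5s from complex V, so that median was taken over fewer genes. What causes the other shifts was not tested. The sums without members of wide spread were added after seeing the data. With FPKM alone, what depth limits could not be stated.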
